A study of Mus musculus with 36 samples.

Results

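The first 15 min of release from a long hyperosmotic stress were examined by setting ribosome footprints of cells 15 min into recovery beside those of cells still under stress. The comparison was made over the 4 footprint libraries that the labels give to these conditions, of 18 footprint libraries and 36 samples in the series. All cells were mouse embryonic fibroblasts of the C57BL/6J strain. The released cells had spent 2 h in medium brought to 700 mOsm with sorbitol, a sugar alcohol, and then 15 min in recovery (2 libraries). The stressed cells had spent the same 2 h at 700 mOsm with no recovery (2 libraries). Cells released for 15 min after only 15 min at 700 mOsm, cells at 700 mOsm for 15 min, cells 2 h into recovery from the long stress, and unstressed cells served as further points of comparison, with 2 libraries each. How the medium was changed for recovery, and whether the libraries of a condition came from separate cultures, were not given in the sources used here.

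Ribosome profiling (Ribo-seq) sequences the short stretches of mRNA that ribosomes protect from a nuclease, so the number of footprints on a coding sequence reflects how many ribosomes sit on it. When sorbitol draws water out of a cell, the cell shrinks and protein synthesis drops. A coding sequence empties of ribosomes when they stop loading at its start but go on to its end, and stays occupied when ribosomes halt along the way. Here footprints came from gradient fractions that held single ribosomes and polysomes, from extracts made with the elongation inhibitor cycloheximide in the lysis buffer. Footprints alone count ribosomes on an mRNA and do not tell a moving ribosome from a halted one.

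Each library was read as RPKM, the reads on a coding sequence per kilobase, set relative to the library's total, and divided by a scaling factor that set the typical abundant transcript level across the 18 libraries. A difference below is the log2 of the mean scaled RPKM of the 2 released libraries plus 1, minus the same for the 2 stressed libraries, so 1 stands for a 2-fold higher level after release. The values are relative within a library and hold no measure of the total amount of translation. The files name transcripts by Ensembl identifiers without gene symbols, and the tables used here matched 0 of them to a name. The labelled cell type was therefore not checked against fibroblast markers, and transcripts are described by their coding length, their non-coding length and their level.

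The released libraries held 2500212 and 2372665 reads on listed transcripts, and the stressed libraries 734083 and 909760. Over all 18 footprint libraries the range was 734083 to 9124787 reads. Paired libraries of a condition were nearly alike: the chi-square statistic of their reads per degree of freedom was 1.005 to 1.085 over the 9 footprint pairs, where counting noise alone gives a value near 1. The stressed pair had the highest value, and 11 transcripts with at least 40 reads in 1 stressed library were unlisted in the other. The 2 libraries of a condition were therefore counted as 1 sample, and the differences have no replicate check and no p-value. Depth moved with the comparison, and transcripts under about 5 reads were left off a library's list and were read here as 0. The part of depth in the differences of weakly read transcripts was not tested, so counts are also given for transcripts with many reads.

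After 15 min of release, more mRNAs stood higher than lower in their relative footprint level. Of 8849 transcripts with a mean scaled RPKM of at least 2 over the 18 libraries, 3493 (39.5%) were at least 2-fold higher in released than in stressed cells and 1245 (14.1%) were at least 2-fold lower. The median difference was 0.58, with quartiles of -0.45 and 1.68. Higher transcripts made up 73.7% of those past 2-fold, and 88.7% on the RPKM as deposited, where 4574 were higher and 583 lower. The scaling factors shifted the released libraries against the stressed ones by -0.52 on the log2 scale. They were set on 4619 abundant transcripts listed in all 18 libraries, which leaves out those read as 0 under stress. An excess of higher transcripts among the rest is thus partly built in. Of 5085 transcripts with at least 100 released reads and a listing in all 4 libraries, 1359 were higher and 890 lower.

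The upward differences were also the larger ones. At least 4-fold separated 1756 transcripts that were higher after release and 197 that were lower. At least 8-fold separated 706 higher and 19 lower, and at least 16-fold 279 higher and 7 lower. The higher counts include transcripts that were unlisted in both stressed libraries and read as 0. Of these, 1433 were listed in both released libraries, with a lower quartile of 4.12 scaled RPKM there. Only 2 transcripts went the other way. The part of the listing minimum in the larger folds was not tested. The asymmetry was smaller among well-read transcripts: of 2848 with at least 1000 reads in the 2 unstressed libraries together, 951 (33.4%) were higher and 498 (17.5%) lower by 2-fold or more, with a median difference of 0.39. In that set, 0 transcripts differed at least 2-fold between the 2 released libraries and 76 between the 2 stressed libraries.

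The library pairs gave a check of counting error only, since the 2 libraries of a condition were counted as 1 sample. The replicate 1 libraries alone put 3712 transcripts past 2-fold upward and 1258 past 2-fold downward. Of these, 2832 (76.3%) and 1012 (80.4%) passed the same fold in the replicate 2 libraries. The median differences of the replicate 1 groups were 2.33 and -1.49 in replicate 1, and 1.80 and -1.43 in replicate 2.

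The levels of the 2 groups were then read in the replicate 2 libraries. The groups were chosen by released against stressed cells, so the direction of that step follows from the choice. The replicate 2 libraries count as the same samples and give no separate check of it. The unstressed and 2 h recovery levels did not enter the choice. The group that was higher after release in replicate 1 had a median of 17.3 scaled RPKM in unstressed cells, 4.47 at 2 h of stress, 14.2 after 15 min of recovery and 13.3 after 2 h of recovery. The group that was lower had 42.3 in unstressed cells, 134 at 2 h of stress, 48.3 after 15 min of recovery and 51.1 after 2 h of recovery. Both groups stood nearer their unstressed level after 15 min of release than under stress. The choice favours extreme stressed levels, which lie away from other conditions too, so this nearness follows in part from the choice. Their medians at 2 h of recovery were within a small margin of those at 15 min.

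The spread of all transcripts around the unstressed level narrowed in the same way. The standard deviation of the log2 difference from unstressed cells was 1.77 over transcripts at 2 h of 700 mOsm, 0.56 after 15 min of recovery and 0.66 after 2 h of recovery. The share of transcripts within 2-fold of the unstressed level was 37.9% under stress, 93.1% at 15 min and 89.0% at 2 h of recovery. After 15 min of release from the short stress it was 98.9%, with a standard deviation of 0.33. These values share the unstressed libraries, and the stressed libraries carry more counting noise than the released ones.

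Footprints were spread over more mRNAs after release. The released libraries listed 9661 and 9616 transcripts, against 6624 and 7145 in the stressed libraries. At the depth of the shallowest library, 734083 reads, the released libraries would be expected to hold 8234 and 8225 transcripts with 5 reads or more, the stressed libraries 6624 and 6681, and the unstressed libraries 8312 and 8324. The wider coverage thus stood at matched depth. The 10 highest transcripts of each library held 8.60% and 8.71% of the summed RPKM in released cells, 14.9% in each stressed library, and 7.78% and 7.81% in unstressed cells. The number of transcripts that held the upper 50% of the summed RPKM was 215 and 213 in released cells, 87 and 86 in stressed cells, and 256 in each unstressed library.

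**Figure D1:**
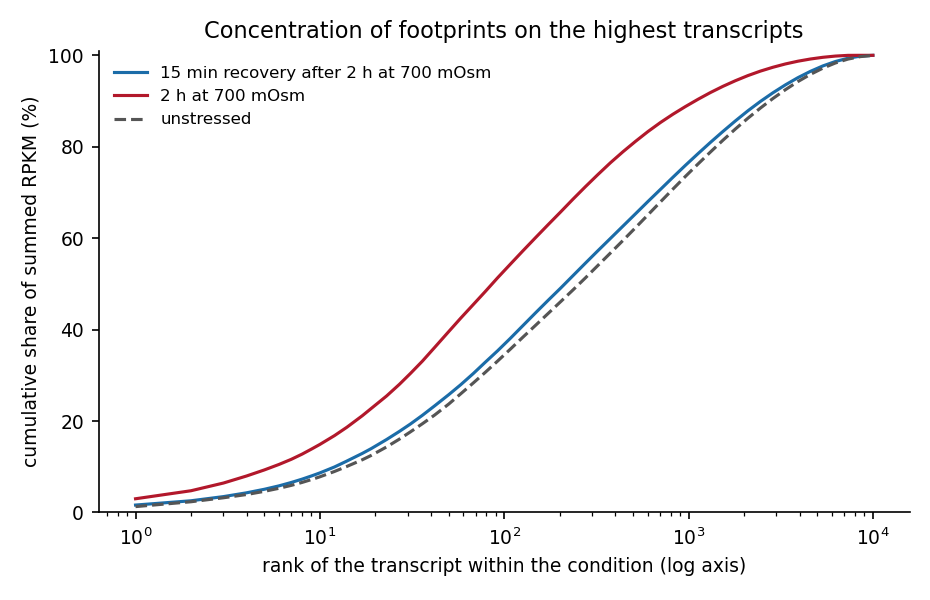
Cumulative share of the summed RPKM (y axis, percent) over transcripts ranked from highest to lowest within each condition (x axis, rank on a log scale), for cells 15 min into recovery from 2 h at 700 mOsm, cells at 2 h of 700 mOsm, and unstressed cells, as means of 2 libraries. The stressed curve lies well above the others at low ranks, and the released curve lies close to the unstressed one.

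The mRNAs that dominated the stressed libraries gave up their share. The 10 highest transcripts of stressed replicate 1, with a median of 100 codons, held 7.96% and 8.09% of the summed RPKM in released cells, against 14.9% and 14.8% in stressed cells. In unstressed cells they held 7.11% and 7.14%. The choice by a high stressed level itself favours lower values after release. The stressed replicate 2 library counts as the same sample as the library that made the choice, so it checks counting error only. All 10 were at least 2-fold lower after release in the replicate 2 libraries. Of the 100 highest, with a median of 139 codons, 80 were at least 2-fold lower there and 0 at least 2-fold higher. Of the 1000 highest, 530 were at least 2-fold lower and 40 at least 2-fold higher. Over all 8849 transcripts the replicate 2 libraries put 14.7% at least 2-fold lower and 38.3% at least 2-fold higher.

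The order of the very top changed only in part. The 100 highest transcripts of released replicate 1 shared 76 with those of stressed replicate 1, 83 with those of unstressed replicate 1 and 97 with those of released replicate 2. Among the 1000 highest, 737 were shared with stressed cells, 911 with unstressed cells and 975 with the second released library. The released list thus lay closer to the unstressed than to the stressed one.

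A further group of mRNAs was unlisted under stress and listed after release. Of the 8849 transcripts, 1549 (17.5%) were unlisted in both stressed libraries, and 1433 of these (92.5%) were listed in both released libraries. Transcripts unlisted under stress passed the minimum mean of 2 scaled RPKM only through other conditions, the released ones among them. The released libraries were also deeper. Both favour a high share listed after release, so no result was read from the 92.5%. In the other direction, 54 of the 8849 (0.61%) were unlisted in both released libraries, and 2 of these were listed in both stressed libraries. The 1433 newly listed transcripts were weakly read, with a median of 47 reads in the 2 released libraries together, and 190 of them had 100 reads or more. Their median level was 7.94 scaled RPKM in unstressed cells, 6.56 after 15 min of recovery and 6.36 after 2 h of recovery. They made up 11.7% of transcripts with up to 100 codons, 153 of the 1096 with over 100 to 200, 20.1% with over 200 to 400, 18.3% with over 400 to 800, 9.88% with over 800 to 1600, and 2.41% with over 1600. An unlisted transcript is not shown to lack footprints.

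The response differed between classes of coding length, without a steady order. Within these classes it also varied with non-coding length and level, as set out below. Transcripts with up to 100 codons were mostly lower after release, those with 200 to 1600 codons were mostly higher, and those with over 1600 codons lay nearer to 0. The 180 shortest coding sequences had a median of 198 and 210 scaled RPKM in released cells, against 295 and 292 in stressed cells. Their median difference was -0.82 (quartiles -1.53 and 0.79), with 42 (23.3%) higher and 81 (45.0%) lower by at least 2-fold, against 39.5% and 14.1% of all transcripts. The 2 released libraries lay below both stressed libraries in this class, which bears on counting error only.

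The next class, over 100 to 200 codons, held 1096 transcripts with a median difference of -0.18, of which 318 were higher and 322 (29.4%) lower by at least 2-fold. Its median level was 94.1 and 96.2 scaled RPKM in released cells, against 102 and 99.2 in stressed cells. The sign of this small median turned with the scaling, to 0.25 on the RPKM as deposited. In the 434 of these with at least 1000 unstressed reads the median was -0.69, with 60 higher and 174 lower.

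The classes in the middle of the length range had shares of higher transcripts near that of all 8849. The 2647 transcripts with over 200 to 400 codons had a median difference of 0.60, with 1126 (42.5%) higher and 455 (17.2%) lower by at least 2-fold. The 3166 with over 400 to 800 codons had 0.79, with 1413 (44.6%) higher and 316 (9.98%) lower. Their median level was 16.1 and 15.9 scaled RPKM in released cells, against 9.84 and 10.2 in stressed cells. Released and stressed libraries did not overlap in the median of either class, which bears on counting error only.

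Among long coding sequences few transcripts were lower, and above 1600 codons few were higher as well. The 1387 transcripts with over 800 to 1600 codons had a median difference of 0.72, with 523 (37.7%) higher and 54 (3.89%) lower by at least 2-fold. The 373 with over 1600 codons had a median of 0.30 (quartiles -0.22 and 0.84), with 71 (19.0%) higher and 17 (4.56%) lower. Their median level was 5.43 and 5.28 scaled RPKM in released cells, against 4.55 and 4.97 in stressed cells. In the 154 of these with at least 1000 unstressed reads the median was 0.54, with 45 higher and 4 lower.

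**Figure D2:**
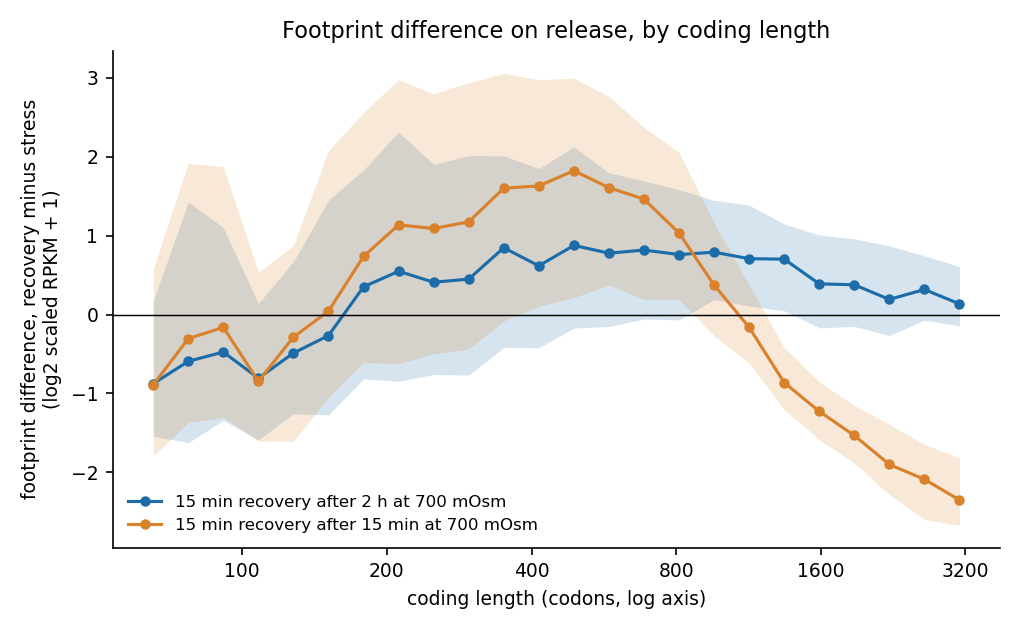
Footprint difference between 15 min of recovery and the stress before it (y axis, log2 of scaled RPKM plus 1) against coding length (x axis, codons on a log scale), for release after 2 h and release after 15 min at 700 mOsm. Points are medians of transcripts in length bins and bands span the quartiles over transcripts; toward the longest coding sequences the short-stress curve falls below 0 while the long-stress curve stays above it.

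The shares of a library's reads taken by the length classes also differed between released and stressed cells. Coding sequences of up to 100 codons took 3.85% and 3.88% of all listed reads in released cells, against 7.69% and 7.71% in stressed cells. Those with over 100 to 200 codons took 19.2% in each released library, against 28.9% and 28.7% in stressed cells. Both short classes thus lost share on release.

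The long classes took larger shares after release. Coding sequences of over 800 to 1600 codons took 12.6% and 12.7% of reads in released cells, against 6.73% and 6.72% in stressed cells. Those with over 1600 codons took 3.98% and 4.01% in released cells, against 2.36% and 2.35% in stressed cells. The class of over 200 to 400 codons took 28.0% in each released library, against 28.1% and 28.2% in stressed cells, so its share differed little although its median transcript was higher. The 95% Wilson intervals of these shares reached at most 0.104 percentage points to either side, for counting error only.

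**Figure D3:**
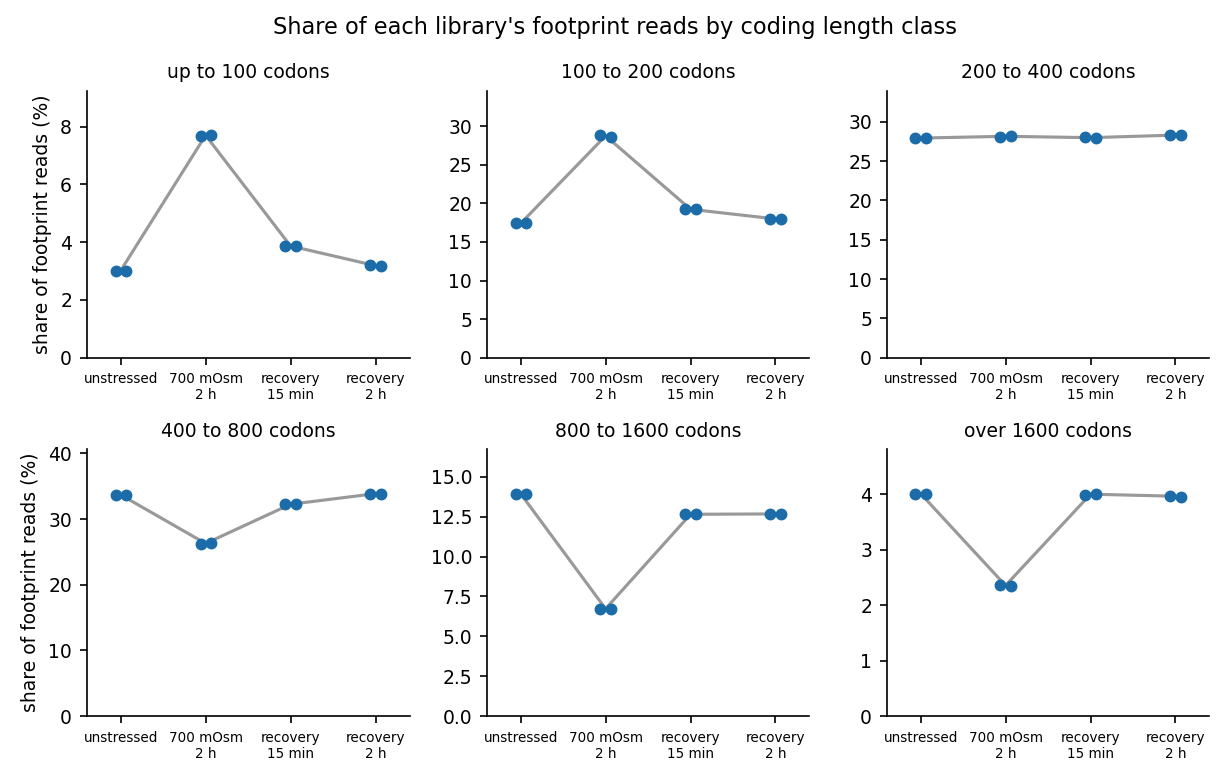
Share of each library's listed footprint reads (y axis, percent, starting at 0) taken by 6 classes of coding length in unstressed cells, at 2 h of 700 mOsm, and after 15 min and 2 h of recovery. Each point is 1 library and the line joins condition means. The 2 shortest classes peak under stress and the 2 longest dip. At 15 min of recovery all 6 shares stand nearer their unstressed than their stressed values.

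By 15 min the shares stood nearer the unstressed than the stressed values, with the 2 shortest classes still above their unstressed shares. Coding sequences of up to 100 codons took 3.01% of reads in unstressed cells, 7.70% at 2 h of stress, 3.86% after 15 min and 3.18% after 2 h of recovery. Those with over 1600 codons took 4.01%, 2.35%, 4.00% and 3.96% at the same points. Those with over 800 to 1600 codons took 13.9%, 6.73%, 12.6% and 12.7%.

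The non-coding part of the mRNA, the untranslated regions at both ends, also went with the response. Its length was the transcript length in the RNA lists minus the coding length, and was found for 8822 of the 8849 transcripts. The median difference was 0.04 where the non-coding part was at most 500 nt (1974 transcripts; -0.17 with at least 1000 unstressed reads), 0.54 for 2057 with over 500 to 1000 nt, 0.70 for 2359 with over 1000 to 2000 nt, and 0.89 for 2432 with over 2000 nt. At least 2-fold higher were 565 transcripts (28.6%) of the first class and 1143 (47.0%) of the last. At least 2-fold lower were 460 of the first and 219 of the last.

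Within a class of coding length, non-coding length still ordered the medians up to 800 codons. Among transcripts with up to 100 codons the median was -1.13 where the non-coding part was at most 500 nt (72 transcripts) and 0.82 where it was over 2000 nt (26 transcripts). Among those with over 200 to 400 codons it was -0.04 with up to 500 nt (636 transcripts) and 1.18 with over 2000 nt (675 transcripts). Above 1600 codons the order was gone, with medians of 0.32, 0.40, 0.29 and 0.18 from the shortest to the longest non-coding class. The most negative median of the 24 groups belonged to mRNAs that were short in both parts, and the most positive to coding sequences of over 200 to 400 codons with the longest non-coding parts.

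**Figure D4:**
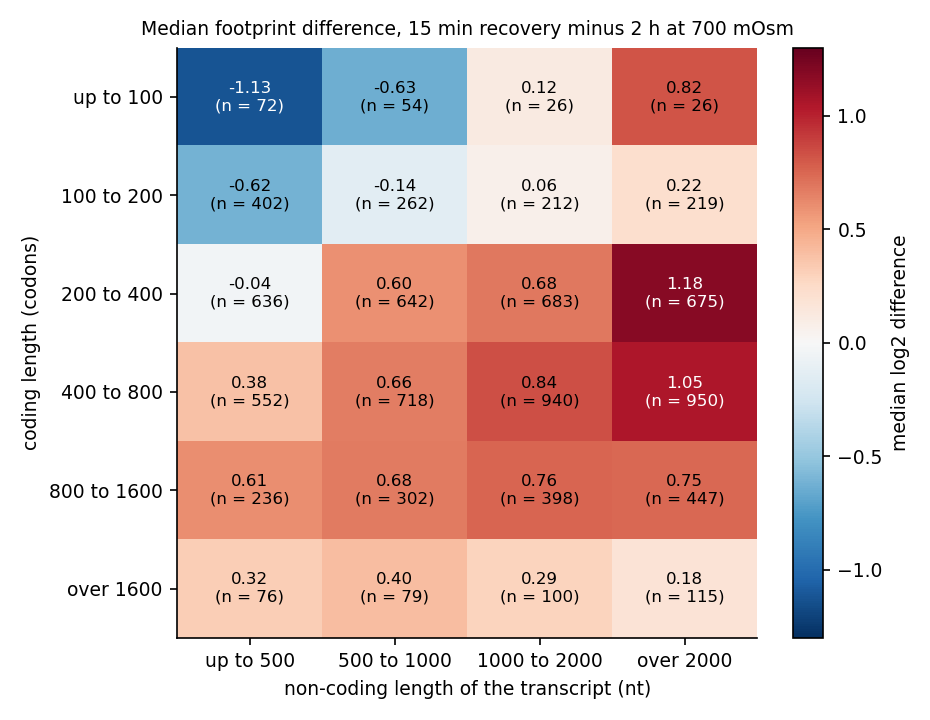
Median footprint difference (colour and upper number, log2, 15 min recovery minus 2 h at 700 mOsm) by coding length in codons (rows) and non-coding length in nt (columns), with the number of transcripts in each group in brackets. Up to 800 codons the medians climb from left to right, and over 1600 codons they do not.

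The level of an mRNA in unstressed cells, which the compared libraries did not enter, separated the most heavily occupied transcripts from the rest. Transcripts with 2 to 10 scaled RPKM of footprints in unstressed cells had a median difference of 0.82, those with 10 to 30 had 0.72, those with 30 to 100 had 0.65, and those with 100 to 300 had 0.21. The median was -0.47 for the 630 transcripts above 300, of which 132 stood higher and 216 lower by at least 2-fold. On the RPKM as deposited their median was 0.05. The 126 transcripts with up to 2 scaled RPKM had a median of -0.49. They passed the minimum only through higher values in other conditions, and without that minimum the class median was 0.76. The order below 100 scaled RPKM turned among well-read transcripts: with at least 100 released reads and a listing in all 4 libraries the medians from 2 to 10 up to 100 to 300 were 0.19, 0.34, 0.49 and 0.17, and with at least 1000 unstressed reads they were 0.021, 0.65, 0.77 and 0.29. The median above 300 was -0.47 in both. Without stressed replicate 2 the median at 2 to 10 was 1.59, without stressed replicate 1 that at 100 to 300 was 0.14, and without stressed replicate 1 that at up to 2 was -0.19 (-0.26 without stressed replicate 2).

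Level and coding length were also set out jointly. Above 300 scaled RPKM the medians of groups with at least 20 transcripts climbed with coding length. At 30 to 100 and at 100 to 300 they mostly climbed with it. At 2 to 10 they declined with it, an order that the listing minimum itself favours. At 10 to 30 they followed neither order. At the highest level the median was -1.25 for up to 100 codons (72 transcripts), -0.84 for over 100 to 200 (235), -0.10 for over 200 to 400 (207) and 0.46 for over 400 to 800 (102). For transcripts at 2 to 10 scaled RPKM it was 1.97 for over 100 to 200 codons (104 transcripts), 1.81 for over 200 to 400 (490), 1.07 for over 400 to 800 (938), 0.66 for over 800 to 1600 (598) and 0.19 for over 1600 (206). At 10 to 30 it was 0.13 for up to 100 codons (22 transcripts), 0.87 for over 100 to 200 (158) and 0.66 for over 200 to 400 (785). In the longer classes it was 0.78 (1056 transcripts), 0.67 (444) and 0.64 (104). At 30 to 100 the medians from the shortest to the longest class were -0.35, 0.16, 0.58, 0.79, 0.87 and 0.85. At 100 to 300 they were -1.08, -0.40, 0.46, 0.37 and 0.83 up to 1600 codons. At up to 2 the median was -0.75 for over 200 to 400 codons (22 transcripts) and -0.63 for over 400 to 800 (57). For over 1600 codons at this level it was -0.32 (22 transcripts). These transcripts passed the minimum mean of 2 scaled RPKM only through other conditions, the compared ones among them. No order with coding length was therefore read from these groups. A set minimum of reads stands for a higher level in a short coding sequence and in a shallow library. The stressed libraries were shallower than the released ones. At 2 to 10 scaled RPKM, short coding sequences could thus be unlisted under stress and listed after release at an unchanged level. The decline with coding length at this level is therefore built in at least in part, and no order was read from it. The part of the listing minimum in the other medians at low level was not tested.

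The mRNA level set apart the most abundant mRNAs. By the cytoplasmic RNA of cells at 2 h of 700 mOsm, transcripts with up to 5 FPKM (fragments per kilobase, set relative to the library's total) had a median footprint difference of 0.80, those with 5 to 20 had 0.68, those with 20 to 80 had 0.54, and the 1020 above 80 had -0.10. On the RPKM as deposited this last median was 0.42, and without stressed replicate 2 the first was 1.39. With at least 100 released reads and a listing in all 4 libraries the 4 medians were 0.35, 0.32, 0.33 and -0.11, with no order below 80 FPKM.

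The transcripts past 2-fold in each direction differed in makeup. Those higher after release had a median of 451 codons, 1324 nt of non-coding sequence and 19.1 scaled RPKM in unstressed cells. Those lower after release had 285 codons, 715 nt and 44.4 scaled RPKM. Over all 8849 transcripts the medians were 441 codons, 1128 nt and 22.9 scaled RPKM. Coding sequences of up to 200 codons made up 10.3% of the higher transcripts, 32.4% of the lower ones and 14.4% of all.

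A pair of transcripts at either end was taken by size of difference, from those with at least 100 reads in the condition where they were higher. ENSMUST00000100489, with 212 codons, had 404 and 420 scaled RPKM in released cells, against 37.8 and 31.1 in stressed cells. The reads behind these values were 714 and 705 after release and 14 in each stressed library. The difference was 3.54, and the ratio of scaled reads was 12.1 with an exact 95% interval of 8.31 to 18.2 for counting error only. Unstressed cells had 490 and 488 scaled RPKM, so the released level was most of the unstressed one.

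ENSMUST00000159514, with 176 codons and 3228 nt of non-coding sequence, had 386 and 379 scaled RPKM in released cells, against 35.8 and 29.4 in stressed cells. Its difference was 3.51, and its level reached 612 and 589 scaled RPKM at 2 h of recovery and 664 and 661 in unstressed cells. At 15 min its return was thus still partial. After 15 min of release from the short stress it had 618 and 643 scaled RPKM, above both libraries released from the long stress.

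ENSMUST00000076086, with 311 codons, had 7.71 and 9.75 scaled RPKM in released cells, against 140 and 126 in stressed cells. Its difference was -3.78, from 20 and 24 reads after release and 76 and 83 under stress. It had 2.19 scaled RPKM, from 16 reads, in 1 unstressed library and was unlisted in the other, and was unlisted in both libraries at 2 h of recovery. At 2 h of 500 mOsm (12 reads) and at 15 min of 700 mOsm (13 reads) it was also listed in 1 library only. It had no non-coding length and no RNA level in the RNA lists. Its footprints were thus high at 2 h of 700 mOsm, and low or unlisted before stress and at 2 h of recovery.

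ENSMUST00000045521, with 617 codons and 3914 nt of non-coding sequence, had 4.08 and 4.91 scaled RPKM in released cells, against 92.8 and 19.8 in stressed cells. The stressed libraries stood far apart, with 100 and 26 reads. The difference was -3.38 with both, -1.92 without stressed replicate 1 and -4.09 without stressed replicate 2. Unstressed cells had 4.76 and 4.38 scaled RPKM and cells at 2 h of recovery 6.65 and 7.82.

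**Figure D5:**
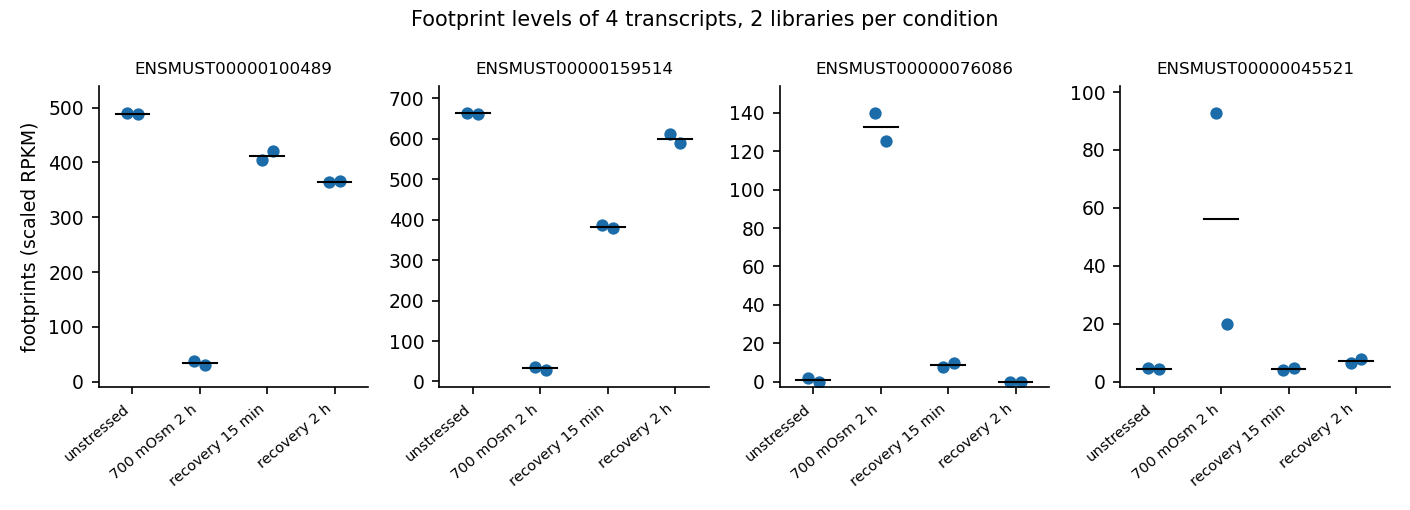
Footprint level (y axis, scaled RPKM, a separate scale for each transcript) of the 4 transcripts in unstressed cells, at 2 h of 700 mOsm, and after 15 min and 2 h of recovery. Points are libraries and bars are means of 2; the first 2 transcripts dip under stress and the other 2 peak there, with the stressed libraries of ENSMUST00000045521 far apart.

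Release from the long stress was set beside release from the short one, in which cells had spent 15 min at 700 mOsm, with no test of the difference since each condition counts as 1 sample. The released cells had 15 min of recovery in both, and the 2 comparisons share no library. After the short stress 4108 transcripts (46.4%) stood at least 2-fold above and 1531 (17.3%) at least 2-fold below their stressed level. Across the 8849 transcripts the differences of the 2 releases had a Pearson correlation of 0.69 and a Spearman correlation of 0.70, which describes transcripts of the same libraries and not independent replicates. Among transcripts with over 1600 codons these were 0.02 and -0.00.

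The releases stood furthest apart at long coding sequences. With over 1600 codons the median difference was 0.30 on release from the long stress and -1.74 on release from the short stress, with 71 and 3 transcripts higher, and 17 and 318 lower, by at least 2-fold. With over 800 to 1600 codons the medians were 0.72 and -0.02. The difference of the long release exceeded that of the short release at least 2-fold in 1254 transcripts (14.2%) and fell short of it at least 2-fold in 2076 (23.5%). Over 1600 codons these counts were 309 and 4, with a median of 1.99.

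Middle lengths went the other way in size. With over 400 to 800 codons the median difference was 0.79 on release from the long stress and 1.54 on release from the short stress, and the long release fell short of the short one by 0.47 in the median. With over 200 to 400 codons the medians were 0.60 and 1.35. With up to 100 codons they were -0.82 and -0.58.

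Above 1600 codons the stressed states differed more than the released states. Median levels there were 5.40 and 6.77 scaled RPKM after the long and the short release, against 4.53 and 25.4 scaled RPKM in the long and the short stress. In unstressed cells the median was 7.44 scaled RPKM.

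The transcripts with opposite calls had the same length pattern. At least 2-fold higher on the long release and at least 2-fold lower on the short one were 132 transcripts, with a median of 1548 codons, and 124 of them (93.9%) had over 800 codons. The reverse held for 59 transcripts with a median of 313 codons, of which 2 (3.39%) had over 800 codons. Of all 8849 transcripts 19.9% had over 800 codons. Among transcripts with at least 1000 unstressed reads there were 82 of the first kind and 0 of the second.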

How the data were processed

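Footprint lists (RPKM, 18 libraries) and RNA lists (FPKM, 18 libraries) were used as the authors deposited them. The lists have no header, and the units were taken from their names and from the steps of the deposited RPKM values; the authors' FPKM lists gave only transcript lengths and the RNA level at 2 h of 700 mOsm. Per the labels' protocols, cytoplasmic extracts were digested with RNase I after a sucrose gradient and fragments of 28 to 30 nt were sequenced. Cutadapt, Bowtie, STAR and GRCm38 stand in the submitters' processing notes, without versions. Whole reads (100% of footprint values within a relative error of 1e-09), library totals and coding lengths were solved from the RPKM steps; lists held effectively 5 reads or more, and unlisted transcripts were set to 0. Libraries were scaled by median ratio over 4619 transcripts listed in all 18 footprint libraries with a mean RPKM of at least 10. The 8849 transcripts with a mean of at least 2 were kept (pseudocount 1). With the libraries of a condition counted as 1 sample, a 2-fold difference was used as the threshold. Named transcripts were the first 2 in each direction by size of difference, with at least 100 reads over the 2 libraries of the higher condition, listed in all 4 libraries and with no overlap. Planned gene lists could not be applied without names. The design had assumed that gene names could be matched. Members and lists were chosen with earlier results of these data known. Alternatives were other scalings, pseudocounts, minimums, folds, left-out libraries and limma 3.58.1. Scripts (Python 3.11.15, pandas 2.3.3) were tested on simulated data.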

Additional observations from a re-analysis of the deposited data

Results flagged for a closer look

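In 3 classes of coding length the scaled medians moved in opposite directions on the 2 releases in every library. The difference between the releases was not tested in any of them. With over 1600 codons, the release from the long stress exceeded that from the short stress by a median of 1.99 on the log2 scale. With over 800 to 1600 codons the median was 0.52. The short release had medians of -0.027 and -0.020 in its 2 library pairs there, so its direction rested on very small values. On the RPKM as deposited the long release had a median of 1.15 there, and long minus short was 0.42. With over 100 to 200 codons long minus short was -0.20, where the long release had a median difference of -0.18 and the short release 0.06. On the RPKM as deposited the long release had 0.25 in this class. Among transcripts of this class with at least 1000 unstressed reads the medians were -0.69 on the long release and -0.71 on the short one, so the directions were no longer opposite.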

How the results depend on the processing

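The median of the class with up to 100 codons stayed negative in each alternative run that gave class medians. Those of the classes above 200 codons stayed positive. The transcripts in a class changed with the minimum used. On the RPKM as deposited 583 transcripts were lower; the medians, from the shortest class to the longest, were -0.30, 0.25 (a change of sign), 1.11, 1.27, 1.15 and 0.70, with 1.06 over all; above 300 scaled RPKM unstressed the median turned to 0.051 and above 80 FPKM to 0.42. Long minus short release was then -0.28 over all and 1.84 above 1600 codons. With at least 100 released reads and a listing in all 4 libraries, 1359 of 5085 were higher and 890 lower. The minimum of reads was set on released cells, which itself favours higher values after release. In this run the medians were 0.27 over all, -1.18, -0.59, 0.14 and 0.45 up to 800 codons and 0.36 above 1600. The median was -0.14 for up to 500 nt of non-coding sequence, and long minus short was 2.09 above 1600 codons. With at least 1000 unstressed reads, chosen after seeing the data, 951 were higher and 498 lower; the medians were 0.39 over all, and -1.28, -0.69, 0.33, 0.61, 0.82 and 0.54 by class, with -0.17 for up to 500 nt, and long minus short was -0.17 over all and 2.53 above 1600 codons. At least 100 unstressed reads gave -1.06, -0.32 and 0.27 for the shortest 2 classes and the longest, 0.087 for up to 2 scaled RPKM unstressed, and 1.92 for long minus short above 1600 codons. Without a minimum the medians were 0.68 over all, 0.75 for over 200 to 400 and 0.26 above 1600 codons, 0.76 for up to 2 scaled RPKM, and long minus short was -0.19 over all and 1.81 above 1600 codons. Means of log2 values, also chosen after seeing the data, gave 0.67 over all, -0.79, -0.15, 0.70 and 0.33 for the shortest 3 classes and the longest, and 2.01 for long minus short above 1600 codons. Scaling over the 4 compared libraries gave -0.87, -0.23 and 0.26 for the shortest 2 classes and the longest. A pseudocount of 0.25 gave 0.36 and, for long minus short, 2.13 above 1600 codons. A fold of 4 left 1756 higher and 197 lower, and 1.5 gave 1935 lower. Leaving out 1 library gave 3415 to 3736 higher and 1254 to 1289 lower transcripts, and medians of 0.50 to 0.63 over all, -0.83 to -0.79, -0.20 to -0.14, 0.56 to 0.68, 0.70 to 0.89, 0.66 to 0.77 and 0.27 to 0.33 by class; long minus short was -0.25 to -0.15 over all and 1.98 to 2.08 above 1600 codons. The cause of these shifts was not tested.

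Treating the libraries as replicates, limma called 3386 higher and 1855 lower transcripts at an adjusted p under 0.05 without a replicate block, and 2849 and 1545 with it; such p-values measure only the spread between these libraries. Same-numbered libraries did not deviate together (correlation of deviations 0.009 over 2032 transcripts), so the numbers were not taken as pairs. The alternatives planned for gene lists were not run, since no gene names were matched. The stressed libraries held the fewest reads of the 4. Between them alone, 403 transcripts stood at least 2-fold apart in one direction and 851 in the other, where the released libraries gave 86 and 62; the part of depth in this was not tested.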
